A study of Mus musculus with 14 samples.

Results

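The genes described here are the ligands, receptors and secreted regulators of Wnt signalling. They were taken by symbol from the annotation of the array: every probe set with exactly 1 gene symbol that was a numbered Wnt or Fzd, Dkk1 to Dkk3, Sfrp1, Sfrp2, Sfrp4, Sfrp5, Frzb, Wif1, Lrp5, Lrp6 or Rspo1 to Rspo4. This rule took in 44 genes with 84 probe sets (a probe set is the group of probes read as 1 transcript signal), out of 34958 probe sets for 18194 genes. The 44 genes were 19 Wnt ligands, 10 frizzled receptors, 2 co-receptors, 4 R-spondins and 9 secreted inhibitors.

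RNA was measured in whole lungs of C57BL/6 mice at 20 weeks of age, with 1 Affymetrix array per sample. By their labels, 5 samples came from CD151KO mice, 5 from CD9KO mice and 4 from wild type mice, the last numbered 1, 3, 4 and 5. Both missing proteins belong to the tetraspanins, which gather integrins and other proteins into groups within the cell membrane. All 3 groups share strain background, age and tissue, and no treatment is named. The alleles, and whether the genes are missing from every cell type, are not given in the sources used here. Separate animals for the samples of a group are not stated in the labels either, and the p-values therefore reflect only the spread among these samples, which could be technical.

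Wnt proteins are lipid-modified secreted ligands. They bind frizzled receptors together with the co-receptors LRP5 or LRP6, which stabilises beta-catenin and lets it act with TCF and LEF factors, or they act through frizzled proteins without beta-catenin, as WNT5A mostly does. R-spondins raise the amount of receptor at the cell surface. SFRP proteins and WIF1 bind Wnt ligands outside the cell, and DKK1 blocks LRP5 and LRP6. In the lung, Wnt2 comes from mesenchyme and is needed, with Wnt2b, for the lung to form, Wnt7b comes from epithelium, and Wnt5a from mesenchyme shapes branching and the alveoli.

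The knockouts were visible in the targeted transcripts. The Cd151 signal was 1027 to 1072 in CD151KO, against 4991 to 5832 in wild type, and Cd9 had 614.5 to 749.1 in CD9KO, against 7998 to 8163 in wild type. CD151KO number 1 and wild type number 1 stood apart from the other arrays along the leading principal component (all genes tested), with scores of -17.2 and -18.5, and CD151KO number 2 had the next lowest at -8.01. This component held 37.5% of the variance. All 5 CD9KO arrays, at 7.23 to 13.4, scored above every CD151KO and wild type array, of which the highest was 2.46. Within CD151KO and within wild type the scores rose with the replicate number. The part of this component in the differences of single genes was not tested. All 8 lung epithelial marker genes passed the signal filter, with a summed signal of 124371 to 129510 over the arrays, and the 4 thymus markers (Rag1, Rag2, Ptcra and Dntt) all lay below it. A signal is on a linear scale in arbitrary units and was compared only within a probe set. In whole lung, fewer cells of a type and less RNA per cell cannot be told apart.

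Of the 44 genes, 27 had a mean signal above the filter of 53.4 and were tested among 12986 genes. The other 17 were below it and are described at the end. The tested ones were 10 Wnt ligands, 9 frizzled receptors, the co-receptor Lrp6, the R-spondin Rspo1 and 6 secreted inhibitors. Differences are in log2(signal + 16), from limma fitted to all 14 arrays, and a gene passed at a Benjamini-Hochberg adjusted p under 0.05 over all genes tested.

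The knockouts differed from each other in a few Wnt genes. Lungs without CD151 had more Sfrp2, Fzd2, Dkk3 and Fzd5 RNA and less Fzd4 RNA than lungs without CD9, by 1.18-fold to 1.58-fold. In this comparison 5 of 27 genes passed (18.5%), where 10.1% of all genes tested did, and 9 had an unadjusted p under 0.05 (all genes 27.6%). Against wild type, lungs without CD9 had lower Fzd5, and it was the only member that passed there, 1 of 27 (3.7%), where 5.51% of all genes did, and 7 had an unadjusted p under 0.05 (all genes 25.4%). In lungs without CD151 none of the 27 passed against wild type by limma, with 4 at an unadjusted p under 0.05, where 0.778% of all genes passed and 11.1% had such an unadjusted p. By the probe set that stands for each gene, none of the 27 had non-overlapping groups there (all genes tested 4.54%). The median difference of the 27 was 0.07 between CD151KO and CD9KO (all genes 0.00), -0.07 between CD9KO and wild type (all genes 0.00) and 0.03 between CD151KO and wild type (all genes 0.01). The 3 comparisons share arrays in pairs, so their values for a gene are not independent.

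**Figure D1:**
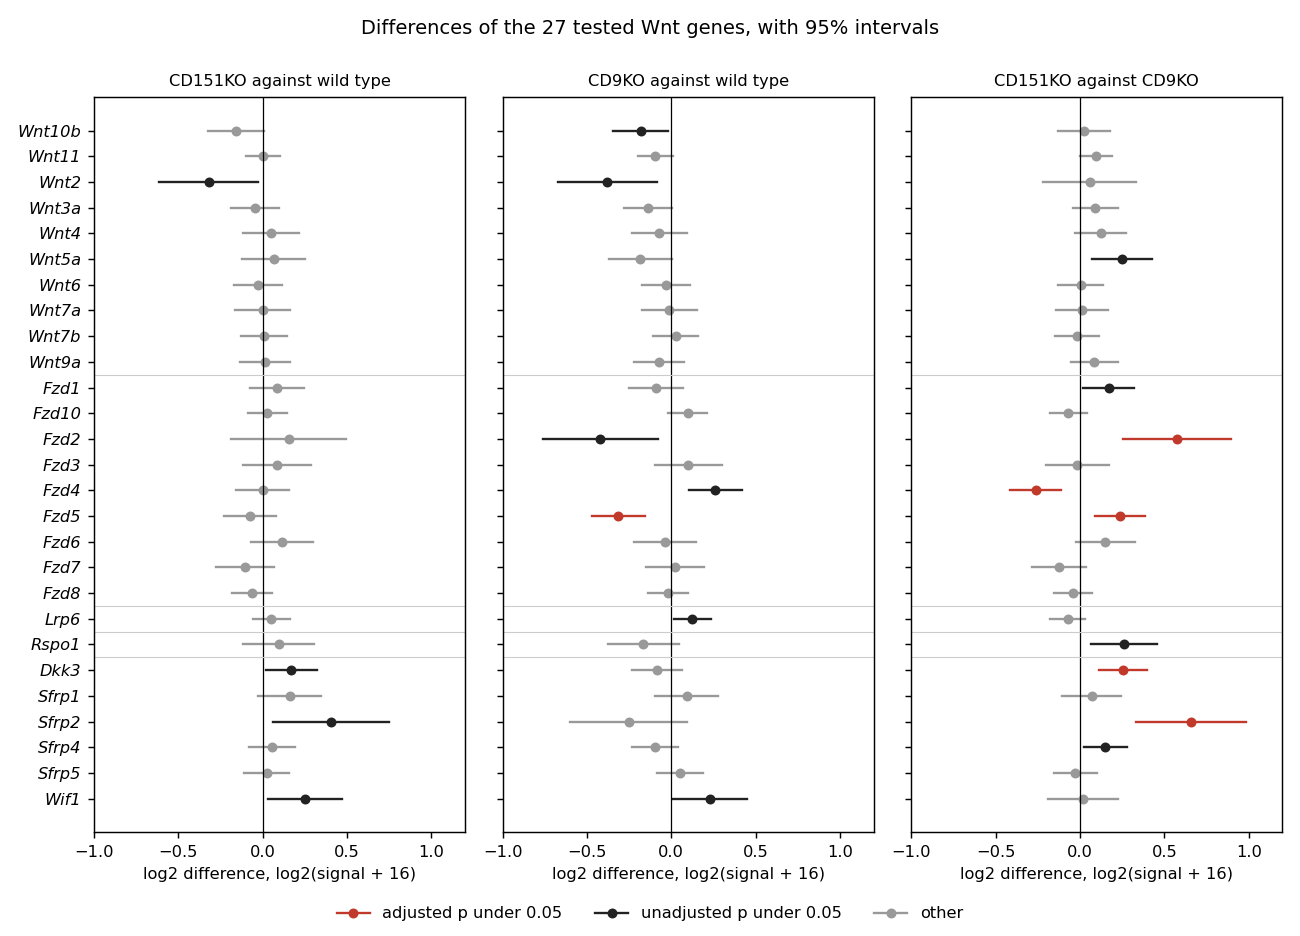
Differences of the 27 tested Wnt genes in the 3 comparisons, in log2(signal + 16), with 95% confidence intervals, ordered by role (ligands, frizzled receptors, Lrp6, Rspo1, inhibitors). Red marks an adjusted p under 0.05, which 5 genes reached in CD151KO against CD9KO, 1 (Fzd5) in CD9KO against wild type and none in CD151KO against wild type.

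The frizzled receptors held 3 of the 5 genes that passed. Fzd2, a receptor for WNT5A among others, had a signal of 331, 334, 251, 194 and 206 in CD151KO numbers 1 to 5 and 175, 175, 181, 150 and 158 in CD9KO numbers 1 to 5. Wild type numbers 1, 3, 4 and 5 had 308, 245, 188 and 194. Every CD151KO array lay above every CD9KO array, and so did every wild type array. By the probe set that stands for each gene, no other tested member separated the knockouts in this way. Among the tested members, Fzd4 and Fzd5 also separated CD9KO from wild type. Among all genes tested 10.6% had non-overlapping groups between the knockouts, and 11.8% between CD9KO and wild type. Fzd2 averaged 263 ± 66.8 in CD151KO and 168 ± 13.1 in CD9KO (SD, n = 5 each), a log2 difference of 0.57 (SE 0.15, limma adjusted p = 0.0271). CD9KO against wild type, which averaged 234 ± 55.5 (n = 4), gave -0.42 (SE 0.16, adjusted p = 0.115) and did not pass. CD151KO against wild type gave 0.15, with a 95% interval of -0.19 to 0.49.

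The Fzd2 signal was spread widely within CD151KO and within wild type. Its 3 highest arrays were CD151KO numbers 1 and 2 and wild type number 1. These arrays also had the lowest scores on the leading principal component and the 3 highest summed signals of the leukocyte markers, 13900, 11414 and 8328, against 3787 to 7706 on the other arrays. All 6 measured leukocyte markers passed the filter, and of them S100a8 (3088 ± 1791 in CD151KO against 879 ± 130 in CD9KO, n = 5 each, adjusted p = 0.00927) and S100a9 (2564 ± 1550 against 639 ± 102, adjusted p = 0.00813), genes of neutrophils, passed between the knockouts. The part of these in the Fzd2 difference was not tested. The Fzd2 call between the knockouts ended without CD151KO number 1 (adjusted p = 0.0715), CD151KO number 2 (0.067), CD9KO number 4 (0.0628) or CD9KO number 5 (0.0666). Without the number 1 arrays of both CD151KO and wild type, a setting added once the arrays had been seen, the difference was 0.49 (adjusted p = 0.0309). Wild type number 1 enters this difference only through the shared spread.

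Fzd5, a receptor of beta-catenin signalling in several epithelia, was lower in CD9KO than in both other groups. It had 321, 419, 307, 347 and 341 in CD151KO and 308, 277, 308, 268 and 292 in CD9KO, against 383, 356, 373 and 347 in wild type. CD9KO did not overlap with wild type, while CD151KO number 3 lay within the CD9KO range and number 2 above all other arrays. It fell by 0.31 in CD9KO against wild type (SE 0.07, adjusted p = 0.0275), at 290 ± 18.2 (n = 5) against 365 ± 16.3 (n = 4). CD151KO averaged 347 ± 43.5 (n = 5) and differed from CD9KO by 0.24 (SE 0.07, adjusted p = 0.0411) and from wild type by -0.08 (95% interval -0.23 to 0.08). The epithelial marker Epcam also had a lower signal in CD9KO, 1905 ± 112 in CD151KO against 1654 ± 65.4 in CD9KO (n = 5 each, adjusted p = 0.00867), and 1820 ± 44.2 in wild type (n = 4). The other 7 epithelial markers did not pass between the knockouts. In CD9KO against wild type none of the 8 passed by limma, with 1 at an unadjusted p under 0.05 (all genes 25.4%). The part of these markers in the Fzd5 differences was not tested.

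The Fzd5 calls were close to the threshold. That between CD9KO and wild type was lost when CD9KO number 4 (adjusted p = 0.0661) or 5 (0.0637), wild type number 1 (0.0721), 3 (0.0656) or 4 (0.0531), or both number 1 arrays (0.0626) were left out. That between the knockouts was lost when CD151KO number 1 (0.0507), 2 (0.0707), 4 (0.0649) or 5 (0.0554), CD9KO number 2 (0.0748), 3 (0.0506), 4 (0.0945) or 5 (0.0804), or wild type number 3 (0.0533) or 4 (0.0512) was left out. It was also lost with no signal filter (0.0527), with only the compared groups in the fit (0.0584) and with the mean of the probe sets (0.135). Over the fits that left out arrays the difference itself ranged between -0.34 and -0.29 for CD9KO against wild type, and between 0.17 and 0.28 for CD151KO against CD9KO.

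Fzd4, the receptor of endothelial cells that takes both Wnt ligands and Norrin, ran the opposite way. It had 899, 869, 1131, 1013 and 1018 in CD151KO and 1102, 1201, 1156, 1363 and 1097 in CD9KO, against 988, 1023, 985.2 and 934 in wild type. CD9KO lay above wild type without overlap, and CD151KO number 3 lay inside the CD9KO range. CD9KO averaged 1184 ± 109 (n = 5) and wild type 983 ± 36.6 (n = 4), a log2 difference of 0.26 (SE 0.07), and the adjusted p of 0.0532 missed the threshold. CD151KO averaged 986 ± 105 (n = 5). Against CD9KO it fell by 0.26 (SE 0.07, adjusted p = 0.0303), and against wild type it differed by -0.00 (95% interval -0.16 to 0.16). The call between the knockouts ended without CD151KO number 1 (adjusted p = 0.0789) or 2 (0.074), CD9KO number 2 (0.0515), 3 (0.0513) or 4 (0.069), or both number 1 arrays (0.0654). The difference between CD9KO and wild type passed without CD151KO number 1 (0.0463), 2 (0.0454) or 3 (0.0445), which enter it only through the shared spread. Among the endothelial markers, Cldn5 was higher in CD151KO than in CD9KO (5212 ± 475 against 4458 ± 395, n = 5 each, adjusted p = 0.0428) and Emcn was lower in CD9KO than in wild type (1008 ± 88.4, n = 5, against 1381 ± 179, n = 4, adjusted p = 0.0313). The other 4 endothelial markers passed in neither comparison. The part of these markers in the Fzd4 difference was not tested.

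**Figure D2:**
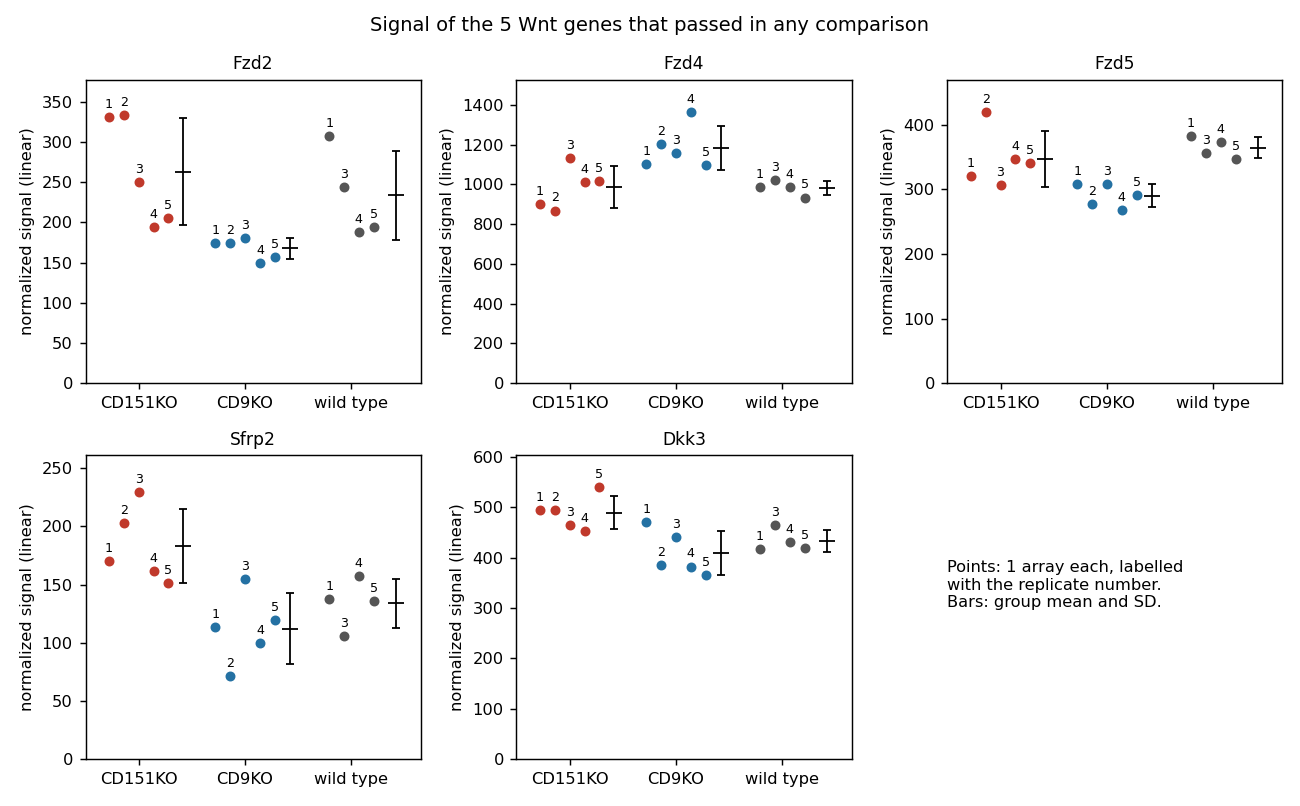
Normalized signal (linear scale) of the 5 Wnt genes that passed in any comparison, 1 point per array with its replicate number, and the group mean and SD beside the points. In CD9KO the Fzd2 and Fzd5 points lie below every wild type point and the Fzd4 points above every wild type point.

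The other 6 tested frizzled genes did not pass in any comparison. Fzd1 had 1029, 960, 780, 819 and 786 in CD151KO and 843, 729, 748, 739 and 797 in CD9KO, against 784, 847, 808 and 841 in wild type, with CD151KO numbers 1 and 2 above all other arrays (CD151KO against CD9KO 0.17, adjusted p = 0.132). Fzd6 had 847, 735, 726, 743 and 742 in CD151KO and 599, 676, 738, 744 and 656 in CD9KO, against 862, 692, 638 and 624 in wild type, where number 1 was the highest (CD151KO against CD9KO 0.15, adjusted p = 0.243). Fzd3 ran from 186 to 258 in CD151KO, 214.5 to 236 in CD9KO and 163 to 240 in wild type. Fzd10 had 95.1 to 111 in CD151KO and 106 to 113 in CD9KO, against 91.9 to 112 in wild type, and the groups overlapped. Fzd7, which acts in stem cells of several tissues, ran from 472 to 581 in CD151KO, 526 to 602 in CD9KO and 478 to 673 in wild type. Fzd8 ran from 191 to 228 in CD151KO, 205 to 231 in CD9KO and 207 to 235 in wild type. For the probe sets that stand for Fzd7 and Fzd8 the largest difference in any comparison was -0.12, for Fzd7 between CD151KO and CD9KO (adjusted p = 0.305). A second Fzd8 probe set gave 0.25 in CD9KO against wild type (adjusted p = 0.208 among probe sets above the filter), and the groups overlapped.

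The promoter sequences of genes that passed are shown because Fzd4 and Fzd5 differed in opposite directions between the knockouts. They are from RefSeq on GRCm38.p6, 250 bases before to 50 after a gene's start, 5′ to 3′ on the gene's strand. Of the 5 genes that passed, 3 had an entry. Fzd4 is at chr7:89404116-89404415 on the plus strand, Fzd5 at chr1:64737701-64738000 on the minus strand and Sfrp2 at chr3:83766071-83766370 on the plus strand. The Sfrp2 stretch is placed at a start inside the annotated gene, which begins at 83765750. Capitals mark GC boxes, GGGCGG on either strand, which can overlap.
Fzd4: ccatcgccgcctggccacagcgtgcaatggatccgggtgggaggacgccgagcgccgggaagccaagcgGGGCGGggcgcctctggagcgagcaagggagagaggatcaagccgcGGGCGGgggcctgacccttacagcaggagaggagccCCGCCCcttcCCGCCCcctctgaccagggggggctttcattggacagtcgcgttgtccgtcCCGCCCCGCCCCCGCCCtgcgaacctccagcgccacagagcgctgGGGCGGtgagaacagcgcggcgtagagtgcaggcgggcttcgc
Fzd5: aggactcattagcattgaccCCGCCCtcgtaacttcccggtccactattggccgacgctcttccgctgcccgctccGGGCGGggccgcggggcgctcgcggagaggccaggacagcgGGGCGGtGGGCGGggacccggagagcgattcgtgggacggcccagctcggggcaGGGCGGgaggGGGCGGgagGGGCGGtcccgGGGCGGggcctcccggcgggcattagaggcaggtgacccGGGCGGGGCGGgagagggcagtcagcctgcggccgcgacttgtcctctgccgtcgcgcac
Sfrp2: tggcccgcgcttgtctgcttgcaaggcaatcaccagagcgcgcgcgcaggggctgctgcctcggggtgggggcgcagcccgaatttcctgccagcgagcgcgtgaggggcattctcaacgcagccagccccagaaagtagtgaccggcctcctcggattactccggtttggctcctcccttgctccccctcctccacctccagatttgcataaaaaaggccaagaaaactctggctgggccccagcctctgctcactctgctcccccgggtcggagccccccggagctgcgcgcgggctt
The Fzd4 stretch held 8 GC boxes and the Fzd5 stretch 10, and both are rich in G and C (72.7% and 75.7%, against 66.0% for Sfrp2). The Sfrp2 stretch held none. None of the 3 held the E-box CACGTG or the TATA box TATAAA, each searched on both strands. None held a TCF/LEF match, which was CTTTGAA or CTTTGAT, or else CTTTGTA or CTTTGTT, on either strand. Of all 32544 promoters in the table, 35.9% held a GC box, 16.9% a TCF/LEF match, 7.17% the E-box and 13.6% the TATA box. In the 32 promoters of the 29 matched Wnt genes these counts were 24, 5, 4 and 5. A match of letters is a description and says nothing of a factor at the site.

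The secreted inhibitors supplied the other genes that passed between the knockouts. Sfrp2, a secreted frizzled-related protein made by fibroblasts, had the largest difference of all 27 genes. Its signal was 170, 203, 229, 162 and 152 in CD151KO and 114, 71.5, 155, 99.4 and 120 in CD9KO, against 138, 106, 157 and 135 in wild type. A single CD9KO array, number 3, reached into the CD151KO range. CD151KO averaged 183 ± 32.2 and CD9KO 112 ± 30.5 (n = 5 each), a log2 difference of 0.66 or 1.58-fold (SE 0.15, adjusted p = 0.0155). The call held without any single array, with an adjusted p between 0.00883 and 0.0408, and without both number 1 arrays (0.0263). Against wild type (134 ± 21.2, n = 4) CD151KO gave 0.41 (SE 0.16, adjusted p = 0.339) and CD9KO -0.25 (SE 0.16, adjusted p = 0.34).

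Dkk3, a member of the DKK family that is not known to block LRP5 and LRP6 as DKK1 does, had 495, 495, 465, 454 and 540 in CD151KO and 471, 386, 441, 383 and 366 in CD9KO, against 417, 466, 432 and 419 in wild type. CD9KO number 1 was the one array of its group inside the CD151KO range. Dkk3 differed by 0.25 between CD151KO and CD9KO (490 ± 33.3 against 409 ± 44.7, n = 5 each, SE 0.07, adjusted p = 0.0274). The difference was 0.17 between CD151KO and wild type (433 ± 22.5, n = 4, adjusted p = 0.365) and -0.08 between CD9KO and wild type (adjusted p = 0.468). The call between the knockouts ended without CD151KO number 1 (adjusted p = 0.0599), 2 (0.0571) or 5 (0.0529), or CD9KO number 2 (0.0537), 4 (0.0661) or 5 (0.0754).

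Some fibroblast marker genes also differed between the knockouts. Of 8 fibroblast markers, Col3a1 (type III collagen) was higher in CD151KO, 3572 ± 285 against 2294 ± 367 in CD9KO (n = 5 each, adjusted p = 0.00273), as was Col1a2 (4625 ± 103 against 3850 ± 488, adjusted p = 0.0358), and Tcf21, a transcription factor of lung fibroblasts, was lower (2342 ± 324 against 3012 ± 450, adjusted p = 0.0377). The summed fibroblast signal was 18590 to 19461 in CD151KO and 15488 to 19824 in CD9KO, against 16821 to 17905 in wild type. CD9KO number 2, which had the lowest Sfrp2 signal, also had the lowest fibroblast sum and the lowest mesothelial sum, 1171 against 1619 to 2562 on the other arrays. None of the 5 mesothelial markers passed between the knockouts by limma, with 1 at an unadjusted p under 0.05. The part of these markers in the Sfrp2 and Dkk3 differences was not tested.

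All 6 tested inhibitors had a positive difference in CD151KO against wild type (all genes 54%), with a median of 0.16, and none passed. These values are of the probe set that stands for each gene. Wif1, which binds Wnt ligands outside the cell, had 119, 127, 107, 115 and 121 in CD151KO and 126, 83.2, 132, 123 and 122 in CD9KO, against 83.4, 112, 102 and 90.9 in wild type. All CD9KO arrays but number 2 lay above every wild type array. The difference was 0.25 for CD151KO against wild type (SE 0.10, adjusted p = 0.357) and 0.23 for CD9KO against wild type (SE 0.10, adjusted p = 0.174), and without CD9KO number 2 it was 0.33 for CD9KO and passed (adjusted p = 0.0243). Sfrp1, which in mice is needed for normal alveoli, had 185, 178, 172, 186 and 252 in CD151KO and 174, 194, 182, 167 and 200 in CD9KO, against 180, 170, 177 and 157 in wild type. Number 5 of CD151KO was above all other arrays, and no comparison passed (CD151KO against wild type 0.16, adjusted p = 0.535). Sfrp4 had 118, 118, 125, 103 and 102 in CD151KO and 102, 112, 90.1, 100 and 97.1 in CD9KO, against 101, 109, 109 and 114 in wild type, and the groups overlapped (CD151KO against CD9KO 0.15, adjusted p = 0.122). Sfrp5 had differences of no more than 0.05 in size by the probe set that stands for it. A second Sfrp5 probe set gave -0.07 in CD151KO against wild type and -0.07 in CD151KO against CD9KO.

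None of the 10 tested Wnt ligands passed in any comparison by limma. At an unadjusted p under 0.05 there was 1 in CD151KO against wild type, 2 in CD9KO against wild type and 1 in CD151KO against CD9KO. Wnt2, the mesenchymal ligand of the lung, had 224, 240, 180, 187 and 144 in CD151KO and 245, 175, 178, 162 and 171 in CD9KO, against 292, 259, 210 and 223 in wild type. Most knockout arrays lay below the wild type range, and CD151KO numbers 1 and 2 and CD9KO number 1 lay inside it. The difference from wild type was -0.32 in CD151KO (195 ± 38.2, n = 5, against 246 ± 36.7, n = 4, SE 0.14, adjusted p = 0.385) and -0.38 in CD9KO (186 ± 33.4, n = 5, SE 0.14, adjusted p = 0.102). Without CD9KO number 1 the difference in CD9KO was -0.47 and passed (adjusted p = 0.0456).

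Wnt5a, the ligand that mostly acts without beta-catenin, had 158, 183, 159, 141 and 144 in CD151KO and 135, 116, 145, 145 and 108 in CD9KO, against 149, 166, 143 and 139 in wild type. CD9KO numbers 1, 2 and 5 lay below all arrays of the other groups. Wnt5a differed by 0.25 between CD151KO and CD9KO (157 ± 16.6 against 130 ± 16.9, n = 5 each, SE 0.08, adjusted p = 0.0681). A second Wnt5a probe set gave 0.16 in this comparison (adjusted p = 0.0643 among probe sets above the filter). It was lower in CD9KO than in wild type without overlap (-0.17, adjusted p = 0.0768) and did not pass. Wnt10b, a ligand of beta-catenin signalling, had 85.6, 81.3, 75.6, 81.2 and 70.5 in CD151KO and 80.7, 79.0, 81.9, 71.3 and 73.3 in CD9KO, against 106, 85.9, 73.9 and 95.2 in wild type. Its difference was -0.16 in CD151KO (adjusted p = 0.47) and -0.18 in CD9KO (adjusted p = 0.156), with wild type number 1 above the rest. The epithelial ligand Wnt7b ran from 150 to 195 in CD151KO, 162 to 186 in CD9KO and 162 to 176 in wild type, with no difference above 0.03 in size. Wnt4 (252 to 321 in CD151KO, 219 to 279 in CD9KO and 252 to 275 in wild type) and Wnt11 (154 to 177 in CD151KO, 144 to 163 in CD9KO and 161 to 176 in wild type) did not pass either. Wnt3a, Wnt6, Wnt7a and Wnt9a had differences between -0.14 and 0.09 by the probe set that stands for each gene. Of the 10 ligands, 9 had a negative difference in CD9KO against wild type, with a median of -0.08, and 5 in CD151KO against wild type, with a median of 0.00. Among all genes tested 51.2% and 54% had a positive difference in these comparisons.

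The co-receptor Lrp6 had 881, 910, 956, 970 and 995 in CD151KO and 969, 939, 980, 1078 and 997 in CD9KO, against 833, 902, 973 and 931 in wild type. CD9KO against wild type gave 0.12 (SE 0.05, adjusted p = 0.147), and the other Lrp6 probe set gave -0.13 in the same comparison (SE 0.06, adjusted p = 0.263), so the probe sets disagreed in sign. Lrp6 lies 8.95 Mb from Cd9 on chromosome 6. Rspo1, the R-spondin that was tested, had 395, 342, 409, 361 and 310 in CD151KO and 305, 258, 357, 308 and 276 in CD9KO, against 333, 286, 356 and 381 in wild type. The groups overlapped, with a difference of 0.26 between CD151KO and CD9KO (363 ± 39.9 against 301 ± 37.8, n = 5 each, SE 0.09, adjusted p = 0.086). It passed without CD151KO number 5 (0.31, adjusted p = 0.0449) or CD9KO number 3 (0.32, adjusted p = 0.0463).

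Of the 44 genes, 18 had a single probe set and the others had 2 to 6, which read the same arrays again. Standard errors and adjusted p-values of single probe sets are from a fit of all probe sets without the signal filter. The 3 probe sets of Fzd2 differed by 0.57, 0.68 and 0.56 between CD151KO and CD9KO, and each passed (adjusted p = 0.0362, 0.0316 and 0.0318). Between CD9KO and wild type, only the probe set that stands for Fzd2 was without overlap. The others overlapped and gave -0.44 and -0.17 (adjusted p = 0.174 and 0.56). The second probe set of Dkk3 gave 0.13 (SE 0.06, adjusted p = 0.253), in the same direction as the first, and separated CD151KO from wild type (0.24, adjusted p = 0.128 among probe sets above the filter). The other probe sets of Fzd4 gave -0.16 (adjusted p = 0.329) and, below the filter, -0.11 (adjusted p = 0.515) between the knockouts. The former was higher in CD9KO than in wild type without overlap (0.16, adjusted p = 0.328). The second probe set of Fzd5 lay below the filter and gave -0.02 (adjusted p = 0.798), so the Fzd5 difference rests on 1 probe set, as does that of Sfrp2, the only one on the array for that gene.

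Some genes differed more by probe set than by group. The probe set that stands for Wnt7a, a ligand needed for patterning of limbs and of the female reproductive tract, gave 0.01 between the knockouts. A second one had 160, 232, 107, 99.7 and 102 in CD151KO and 79.9, 86.4, 76.6, 65.4 and 79.4 in CD9KO, against 188, 129, 85.7 and 93.0 in wild type. It was highest on CD151KO numbers 1 and 2 and wild type number 1, the arrays with the most Fzd2, and gave 0.67 between CD151KO and CD9KO (SE 0.20, adjusted p = 0.0741). The 5 probe sets of Sfrp1 ran from 0.07 to 0.20 in this comparison, all above 0, and none passed without the signal filter. One of them lay at 141.3 to 164 in CD151KO and 115.2 to 139.7 in CD9KO, without overlap, and it passed when every probe set above the filter was tested (0.20, adjusted p = 0.0377). The Wnt7a probe set with the large difference was also without overlap between the knockouts and did not pass in that fit (adjusted p = 0.0584). Fzd7 and Lrp6 had 1 probe set on each side of 0. When each gene was given the mean over its probe sets, Fzd4 no longer passed between the knockouts (-0.18, adjusted p = 0.116), nor Fzd5 between CD9KO and wild type (-0.16, adjusted p = 0.057).

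**Figure D3:**
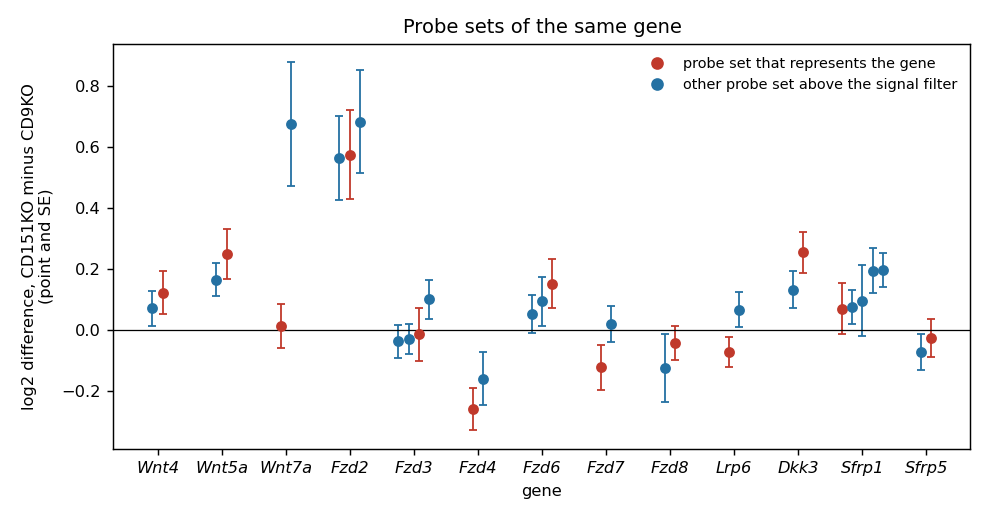
Log2 difference of CD151KO minus CD9KO for probe sets of the same gene, as a point with its SE, for genes with at least 2 probe sets above the signal filter. Red is the probe set that represents the gene and blue the others. The 3 points of Fzd2 lie together, and the 2 points of Wnt7a lie at 0.01 and 0.67.

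**Figure D4:**
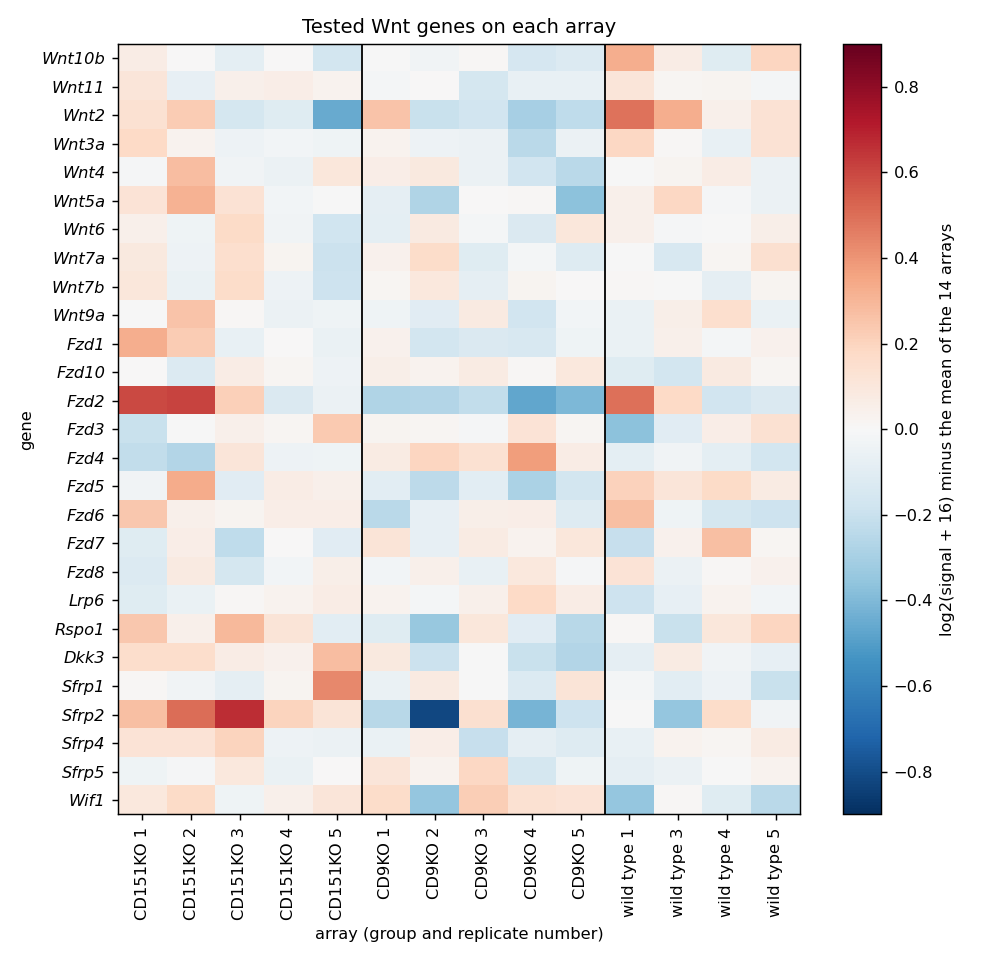
Level of the 27 tested Wnt genes on each array, as log2(signal + 16) minus the mean over the 14 arrays, with CD151KO at the left, CD9KO in the middle and wild type at the right. Fzd2 is highest on CD151KO numbers 1 and 2 and wild type number 1, and Sfrp2 is lowest on CD9KO number 2.

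The 27 genes had a median SE of 0.07 in CD151KO against CD9KO, against 0.06 over all genes tested, and a median absolute difference of 0.09, against 0.07 over all genes. Without both number 1 arrays the differences that had passed between the knockouts were 0.68 for Sfrp2 (adjusted p = 0.0263), 0.25 for Dkk3 (0.0485) and 0.26 for Fzd5 (0.0388), beside those of Fzd2 and Fzd4 given above. Wild type number 1 enters this comparison only through the shared spread. With CD151KO number 1 alone left out, Dkk3 and Fzd5 had the same differences and did not pass (adjusted p = 0.0599 and 0.0507).

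Other genes of the pathway were read from 5 lists. Of 3 genes for secretion and lipid modification of the ligands none passed in any comparison by limma, with Wls, the carrier that takes Wnt proteins to the cell surface, at 1531 ± 49.9 in CD151KO and 1395 ± 118 in CD9KO (n = 5 each), against 1528 ± 81.6 in wild type (n = 4) (CD151KO against CD9KO 0.14, adjusted p = 0.112). In CD151KO against wild type none of the genes tested in the 5 lists passed by limma (all genes 0.778%). At an unadjusted p under 0.05 there were 0 of 3, 2 of 20, 2 of 17, 0 of 11 and 1 of 16 (all genes 11.1%). Beta-catenin itself (Ctnnb1) had 11040 ± 115 in CD151KO and 10800 ± 304 in CD9KO, against 10970 ± 123 in wild type, with no difference above 0.03 in size. Axin2, the most widely used reporter of beta-catenin signalling, had 252 ± 18.4 in CD151KO and 261 ± 14.9 in CD9KO, against 257 ± 25.1 in wild type. Its differences were -0.05 between CD151KO and CD9KO (SE 0.06, adjusted p = 0.656), 0.03 between CD9KO and wild type (SE 0.07, adjusted p = 0.841) and -0.02 between CD151KO and wild type (SE 0.07, adjusted p = 0.933). Ctnnb1 and Axin2 are named for their place in the pathway, after their values were seen.

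Among 20 other receptors and membrane regulators, 1 was higher in CD9KO than in wild type, and 3 were lower in CD151KO than in CD9KO. Of all genes tested, 5.51% and 10.1% passed in these comparisons, in either direction. Lgr4, an R-spondin receptor, had 202 ± 13.5 in CD151KO and 273 ± 14.1 in CD9KO (n = 5 each), against 205 ± 36.0 in wild type (n = 4). The difference was 0.40 in CD9KO against wild type (SE 0.09, adjusted p = 0.0263) and -0.41 in CD151KO against CD9KO (SE 0.09, adjusted p = 0.00979), with no overlap in either. Reck and Adgra2 together form, with frizzled receptors, the complex through which WNT7A and WNT7B act on brain endothelium. Reck fell by 0.27 in CD151KO against CD9KO (1155 ± 53.6 against 1393 ± 93.4, n = 5 each, adjusted p = 0.00594), and Adgra2 fell by 0.22 (306 ± 24.2 against 359 ± 12.2, adjusted p = 0.0263). Prickle1 and Celsr1, genes of planar cell polarity, gave -0.27 and 0.15 in the same comparison (adjusted p = 0.0715 and 0.0737).

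Of 17 cytoplasmic genes, Daam2, which links Dishevelled to the actin cytoskeleton, was the only one that passed. It had 96.6 ± 19.5 in CD151KO and 131 ± 6.98 in CD9KO (n = 5 each), against 92.2 ± 14.9 in wild type (n = 4). The difference was 0.45 in CD9KO against wild type (SE 0.12, adjusted p = 0.0389, all genes passed 5.51%) and -0.40 in CD151KO against CD9KO (SE 0.11, adjusted p = 0.0328, all genes passed 10.1%). The former call was lost with probe sets averaged (adjusted p = 0.0519) and the latter with array weights (0.0577). Dvl1, a Dishevelled gene, gave 0.16 in CD9KO against wild type (adjusted p = 0.0505) and Tnks, a tankyrase that marks Axin for degradation, -0.14 (adjusted p = 0.0882). Of 11 nuclear factors, 2 passed between the knockouts (all genes 10.1%), both Groucho-type corepressors of TCF factors. Tle1 fell by 0.38 in CD151KO against CD9KO (656 ± 112 against 850 ± 41.7, n = 5 each, adjusted p = 0.0362), and Tle2 rose by 0.20 (292 ± 5.87 against 253 ± 23.1, adjusted p = 0.0274). Lef1 gave -0.21 (adjusted p = 0.0761) and Bcl9 -0.10 (adjusted p = 0.387) in this comparison.

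Among 16 feedback and target genes, those that passed went both ways. Nkd1, a feedback inhibitor that binds Dishevelled, had 1136 ± 169 in CD151KO and 1529 ± 195 in CD9KO (n = 5 each), against 1139 ± 150 in wild type (n = 4). It was 0.42 higher in CD9KO than in wild type (SE 0.12, adjusted p = 0.0489) and fell by 0.43 in CD151KO against CD9KO (SE 0.11, adjusted p = 0.0251). The Nkd1 call against wild type was lost with no signal filter (adjusted p = 0.0572), with only the compared groups (0.0511) and with no trend (0.0539). Cd44, a hyaluronan receptor and a target of the pathway in the intestine, went the other way. It had 2304 ± 52.3 in CD151KO and 1981 ± 82.3 in CD9KO (n = 5 each), against 2226 ± 142 in wild type (n = 4), with a difference of -0.17 in CD9KO against wild type (adjusted p = 0.0395) and 0.22 in CD151KO against CD9KO (adjusted p = 0.00579). The Cd44 call against wild type was lost with quantile normalization (adjusted p = 0.0596), probe sets averaged (0.161), only the compared groups (0.0743) and no trend (0.0507). Ccnd1 (cyclin D1) fell by 0.29 in CD151KO against CD9KO (2361 ± 205 against 2890 ± 125, n = 5 each, adjusted p = 0.0064), but with the mean of its probe sets the difference was 0.05 (adjusted p = 0.639). Ccn4, also called Wisp1, was at 56.2 ± 6.04 in CD9KO (n = 5) against 79.4 ± 16.4 in wild type (n = 4) (-0.39, adjusted p = 0.0613).

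Of the 13 calls in these lists, those of Lgr4, Reck, Ccnd1 and Cd44 between the knockouts passed without any single array. Leaving out any array other than the number 5 arrays of CD151KO and of wild type ended at least 1 of the other 9 calls: 9 ended without CD9KO number 5, 8 without CD9KO number 4, 7 without CD9KO number 1, 6 without CD151KO number 3, 5 without CD151KO number 1 or 2, 4 without number 3 of CD9KO or of wild type, 3 without CD9KO number 2 or wild type number 1, 2 when wild type number 4 was left out, and 1 when CD151KO number 4 was. Some muscle marker genes differed as well. Of 6 smooth muscle markers 4 passed in CD9KO against wild type and 1 in CD151KO against wild type, all higher, and none between the knockouts (6, 4 and 2 had an unadjusted p under 0.05 in these comparisons by limma), with summed signals of 7685 to 8949 in CD151KO and 8309 to 9813 in CD9KO, against 6783 to 7596 in wild type. Of 6 cardiac markers Myh6 alone passed in CD9KO against wild type (1844 ± 284 in CD9KO, n = 5, against 1111 ± 177 in wild type, n = 4, adjusted p = 0.0275). Between the knockouts 1 passed, lower in CD151KO. By limma, 5 and 4 of the 6 had an unadjusted p under 0.05 in these comparisons (all genes 25.4% and 27.6%), with medians of 0.51 and -0.36. In CD151KO against wild type none passed, and 1 had such an unadjusted p (all genes 11.1%). The cardiac sums were 5394 to 9792 in CD151KO and 7769 to 10905 in CD9KO, against 6004 to 7216 in wild type. The part of the muscle markers in the differences of these pathway genes was not tested.

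**Figure D5:**
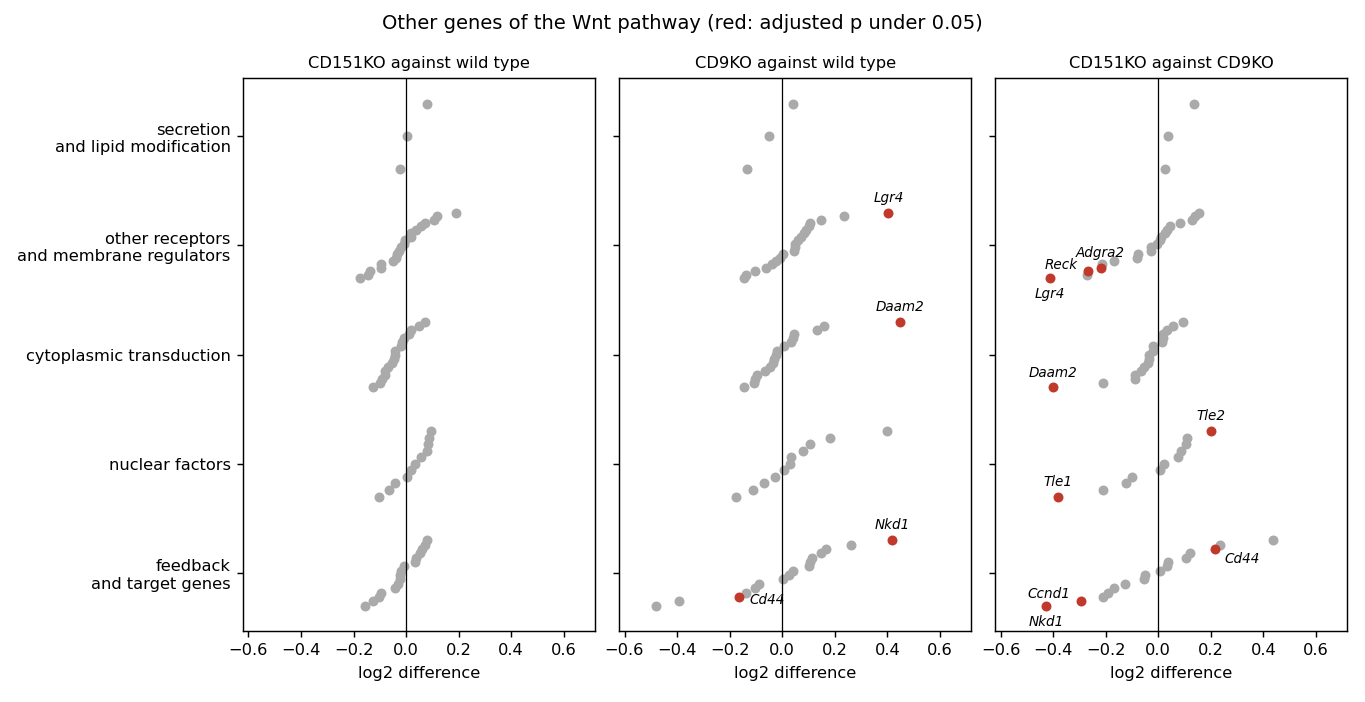
Log2 differences of the tested genes of the 5 pathway lists in the 3 comparisons, 1 point per gene, with genes at an adjusted p under 0.05 in red and named. Lgr4, Daam2 and Nkd1 lie right of 0 in CD9KO against wild type and left of 0 in CD151KO against CD9KO, and no gene is red in CD151KO against wild type.

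The 17 members below the signal filter were 9 Wnt ligands (Wnt1, Wnt10a, Wnt16, Wnt2b, Wnt3, Wnt5b, Wnt8a, Wnt8b and Wnt9b), Fzd9, the co-receptor Lrp5, Rspo2 to Rspo4, Dkk1, Dkk2 and Frzb. Their signals are close to background, and no call was made on them. Over the arrays they ran from 6.98 (Wnt3) to 60.1 (Wnt9b). Over the 14 arrays Rspo3, an R-spondin of endothelial cells, ran from 28.0 to 42.9, and Frzb from 17.3 to 26.9. Lrp5 had 30.7 to 32.0 in wild type, 32.9 to 35.8 in CD151KO and 33.2 to 38.6 in CD9KO. Neither knockout overlapped with wild type (all genes tested 4.54% and 11.8%). The Lrp5 differences were 0.10 and 0.11 (limma unadjusted p = 0.0252 and 0.0167, adjusted p = 0.464 and 0.14). Wnt8b had 28.0 to 31.5 in CD151KO, below the 32.3 to 35.5 of wild type. Wnt5b is singled out after its values were seen: it ran from 37.0 to 49.1 and its 2 probe sets gave -0.15 and -0.15 in CD9KO against wild type (unadjusted p = 0.0119 and 0.0168, adjusted p = 0.118 and 0.141). It lies 5.92 Mb from Cd9 on chromosome 6. Several members are neighbours in the genome on GRCm38.p6. Wnt6 and Wnt10a lie 6697 bases apart on chromosome 1, Wnt3a and Wnt9a 16098 bases apart on chromosome 11, and Wnt10b and Wnt1 11651 bases apart on chromosome 15. In the first and last of these pairs 1 member was tested and its neighbour lay below the filter.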

How the data were processed

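Whole-lung RNA of 14 samples was measured on 1-colour Affymetrix arrays, with groups and replicate numbers taken from the sample titles. The authors deposited linear intensities that were already normalized, per the labels. Per the submitters' processing notes the tools were Affymetrix Expression Console and MAS5. No source used here gives their versions or roles, or the method of summarisation. The array medians lay between 84.1 and 86.2, and no further normalization was applied. For arrays, their number limits the precision.

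Of 45101 probe sets, 34958 had 1 gene symbol in the platform annotation, 932 had several and 9211 had none. The probe set with the highest mean stood for each of 18194 genes. A filter at the 40th percentile of probe sets (signal 53.4) removed 5208 genes and kept 12986. Deposited values were transformed to log2(signal + 16), so fold changes understate the change of weak genes. The 3 groups were fitted together over the 14 arrays by limma 3.58.1 under R 4.3.3 (lmFit, then eBayes using a trend), leaving 11 residual degrees of freedom, with two-sided tests and Benjamini-Hochberg adjustment over all genes tested in each comparison. The procedure was tested on simulated data with independent noise for each gene and array. Such data hold no shift shared by many genes of an array, so its effect on the calls was not checked. Promoter sequences and gene positions came from RefSeq tables on GRCm38.p6. Plots used Python 3.11.15 and matplotlib 3.10.9.

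The members and lists were chosen with earlier results of these data known. The genes described on every array were those that passed, up to 3 further members of each role by smallest unadjusted p, and members named for their place in the lung or the pathway, the last by their range. Of each pathway list, every gene that passed and up to 2 more by smallest unadjusted p were named. The alternatives were other pseudocounts (1 and 64), quantile normalization, median centring, a filter at the 60th percentile or none, probe sets averaged or all kept, the compared groups alone, no trend, weighted arrays, replicate number as a block, and each array left out. Leaving out both number 1 arrays was added after seeing the data.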

Additional observations from a re-analysis of the deposited data

Results flagged for a closer look

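Among 72 groups of 4 or 5 arrays, 1 array lay far from the rest of its group in 4, where chance alone gives about 5% of groups. Wif1 had a signal of 83.2 on CD9KO number 2, against 122 to 132 on the other CD9KO arrays. Sfrp1 had 252 on CD151KO number 5, against 172 to 186 on the other CD151KO arrays. Fzd6 had 847 on CD151KO number 1, against 726 to 743 on the others of that group. Wnt2 had 245 on CD9KO number 1, against 162 to 178 on the others of that group.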

How the results depend on the processing

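The number of arrays and signals near background limit these results. The count of members that passed in CD151KO against wild type was 0 under every alternative run. In CD9KO against wild type it was 2 (Fzd4 and Fzd5) with quantile normalization, a filter at the 60th percentile, every probe set, only the compared groups, or array weights, and 0 with probe sets averaged or without both number 1 arrays (CD151KO and wild type). It ranged from 0 to 2 when single arrays were left out. In CD151KO against CD9KO it was 3 (Dkk3, Fzd2 and Sfrp2) with probe sets averaged, 6 (Sfrp1 added) with every probe set, and 1 to 5 without single arrays. With the replicate number as a block, 5 members passed in CD9KO against wild type (Fzd2, Fzd4, Fzd5, Lrp6 and Wnt2) and 6 in CD151KO against CD9KO (Wnt5a added). The block gave 1591 genes in CD9KO against wild type, where 715 passed without it, 1821 where 1313 did in CD151KO against CD9KO, and 109 where 101 did in CD151KO against wild type. The labels tie the numbers to nothing shared, and 6 of 13 pairs of same-numbered arrays had a correlation of deviations over 0.1 (range -0.13 to 0.592), so the numbers were not taken as pairs. Own-numbered arrays correlated best in 12 of 26 cases, a hint from the data and not the design. Of all genes in CD151KO against wild type, 39 passed with only the compared groups, 335 with array weights, 45 without both number 1 arrays, and 24 to 98 without single arrays. In CD9KO against wild type 1319 passed with every probe set, 1090 with array weights, 405 without both number 1 arrays, and 158 to 865 without single arrays. In CD151KO against CD9KO 682 to 1939 passed without single arrays. With probe sets averaged, the difference of Lrp6 in CD9KO against wild type became -1e-04 (adjusted p = 0.998) and that of Ccnd1 in CD151KO against CD9KO 0.0494 (adjusted p = 0.639). Of the other differences recomputed, those of members at an unadjusted p under 0.05 and of pathway genes that passed, none changed sign. The causes were not tested.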
